A study of Mus musculus with 22 samples.

Results

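Indirect cold atmospheric plasma (CAP) exposes organoids to a medium that has been in contact with plasma, not to the plasma jet itself. The comparison described here sets the 3 RNA-seq libraries of organoids given such medium from day 1 against the 4 libraries of untreated organoids, 7 of the 22 libraries of the series. The libraries were chosen by their labels alone, with no measured value. All 22 libraries come from organoids of the duodenum of wild type, outbred CD1 mice aged 2 months, a culture of epithelium that the labels call stem cells. Each organoid line was grown from 1 mouse, and the lines are numbered 1 to 4 here. Lines 1 and 2 come from male mice at passage 12 and 14, and lines 3 and 4 from female mice at passage 4 in the labels (2 in the study). Every line has 1 untreated library, and lines 1, 2 and 4 have 1 library with indirect CAP, so that line 3 enters as a control only. All cultures received EGF, Noggin, R-spondin 1 and N-acetyl cysteine, with Y-27632 for the first 2 days. For indirect CAP, another organoid culture was treated with a helium plasma jet (50 W for 60 s), and its medium was given to naive organoids at day 1. By the study's methods this medium was left for 24 h, replaced with fresh medium at day 2, and the organoids were collected at day 3, whereas the labels give 30 min. The untreated organoids received no such medium, and no library from organoids given medium of an untreated culture was used here. At the end the group is set against 3 others of the same lines, each with 3 libraries. In direct CAP the jet was applied to the organoids themselves at day 1 and the medium left for 24 h. Plasma-activated medium (PAM) was treated without organoids and given from day 1, also 30 min in the labels. Indirect CAP from day 2 is the later of the 2 indirect groups, 24 h in the labels. By the study, its medium was made at day 1, given to organoids at day 2 and left for 24 h until day 3. This group was thus collected at the end of its exposure, without a day in fresh medium.

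The intestinal epithelium is renewed by stem cells at the base of the crypt, which depend on Wnt signalling and on neighbouring Paneth cells, secretory cells that store antimicrobial peptides. Plasma-treated medium holds long-lived oxidants such as hydrogen peroxide. Cells short of amino acids, or under oxidative or folding stress, phosphorylate the initiation factor eIF2 and make more of the transcription factor ATF4, which acts at composite elements called CARE and induces genes of amino acid uptake and synthesis together with the factors Ddit3 (CHOP), Atf3 and Trib3. Growth factors and stress also induce immediate early genes within minutes, among them the AP-1 factors of the Fos and Jun families, while DNA damage and other stress act through p53 on genes of cell cycle arrest such as Cdkn1a.

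The ATF4 list, which is among the longest, held the most calls by number of the gene lists below. The promoters of 4 of its rising members are shown because each holds the letters of a CARE. These are RefSeq promoters on GRCm38.p6, from 250 bases before to 50 bases after the gene start, written 5′ to 3′ on the strand of the gene. Capitals mark TGATGNAA on either strand. Slc7a11 takes up cystine, Chac1 degrades glutathione, Trib3 is a pseudokinase that restrains ATF4, and Atf3 is a stress-induced factor of the ATF family.
Chac1, chr2:119350992-119351291, plus strand: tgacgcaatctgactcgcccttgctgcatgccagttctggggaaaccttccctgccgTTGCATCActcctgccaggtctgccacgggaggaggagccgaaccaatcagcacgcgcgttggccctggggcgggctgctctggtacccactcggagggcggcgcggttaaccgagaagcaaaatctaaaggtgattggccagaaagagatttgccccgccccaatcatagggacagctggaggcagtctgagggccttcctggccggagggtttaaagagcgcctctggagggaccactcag
Trib3, chr2:152344011-152344310, minus strand: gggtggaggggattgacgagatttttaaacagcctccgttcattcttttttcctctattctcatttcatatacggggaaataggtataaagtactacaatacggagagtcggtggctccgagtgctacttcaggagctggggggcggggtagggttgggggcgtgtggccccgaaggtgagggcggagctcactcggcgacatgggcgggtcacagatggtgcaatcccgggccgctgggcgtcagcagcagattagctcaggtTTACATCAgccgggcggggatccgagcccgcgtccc
Slc7a11, chr3:50443564-50443863, minus strand: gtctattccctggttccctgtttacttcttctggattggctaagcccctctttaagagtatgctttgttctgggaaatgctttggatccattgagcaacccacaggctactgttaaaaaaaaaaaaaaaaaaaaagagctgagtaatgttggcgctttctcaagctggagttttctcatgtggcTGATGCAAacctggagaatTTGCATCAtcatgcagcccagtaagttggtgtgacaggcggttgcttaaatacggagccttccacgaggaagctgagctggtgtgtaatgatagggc
Atf3, chr1:191183284-191183583, minus strand: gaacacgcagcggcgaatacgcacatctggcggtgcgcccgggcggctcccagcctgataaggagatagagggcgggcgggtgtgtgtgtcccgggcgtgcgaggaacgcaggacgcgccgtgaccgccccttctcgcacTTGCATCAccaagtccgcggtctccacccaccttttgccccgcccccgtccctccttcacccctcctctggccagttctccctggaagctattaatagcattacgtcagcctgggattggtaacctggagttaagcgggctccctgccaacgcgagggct
Relative to the gene start the match begins at -193 in Chac1, -110 in Atf3 and 14 in Trib3, while Slc7a11 holds 2 matches, at -66 and -47. TGATGNAA was found in 250 of the 10908 promoters of tested genes (2.29%), and in 4 of the 10 promoters at hand for the 11 members of the ATF4 list that rose. Of all genes past the threshold, only 57.4% of those that rose and 70.6% of those that fell had a promoter in the table, so the comparison of motif shares over these sets is void. Among the promoters that were there, TGATGNAA occurred in 5 of 85 rising and 0 of 60 falling genes, and the fifth of these genes was Slamf9. The AP-1 letters TGANTCA occurred in 5 and 6 (5.16% of all promoters), TGACNNNGC of the antioxidant response element in 16 and 7 (14.7%), GGAATG of TEAD factors in 13 and 7 (12.4%) and CTTTGA of TCF/LEF factors in 8 and 11 (12.6%), each searched on both strands. TGATGNAA, TGANTCA and TGACNNNGC share their first letters and can overlap. A match describes the letters of this window and is not evidence of binding.

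Before the groups were compared, the libraries were checked. Values are reads of a gene among 20 M counted, as scaled by the authors and not divided by gene length, so levels of different genes are not on one scale. The depth estimated from the spacing of low values was 20.7 to 26.0 M reads in the untreated libraries and 19.4 to 24.1 M with indirect CAP. All 9 epithelial markers were present (summed values of 137463 to 148686 untreated and 158194 to 185560 with indirect CAP), as were Gata4, Pdx1 and Onecut2 of the duodenum. None of 6 fibroblast markers reached the filter described below, and their sum was at most 17 in any of the 7 libraries. The 5 immune markers at hand summed to 70 to 96 in untreated organoids and to 109 to 135 with indirect CAP (two-sided exact permutation p = 0.0571, the smallest that 3 against 4 libraries can give). Nearly all of this was Cd52, and Ptprc and Cd3e did not reach the filter. The part of these few reads in any result was not tested. On the first principal component (47.1% of the variance) the 3 indirect CAP libraries lay on one side of the 4 untreated ones, with the treated library of line 4 farthest out. The second (24.9%) separated lines 1 and 2 from lines 3 and 4. These pairs of lines differ in sex and in passage, which cannot be told apart.

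A small share of the genes tested passed the threshold between indirect CAP from day 1 and untreated, with more rises than falls among these calls. The log2 fold change is that of log2(value + 1), indirect CAP minus untreated, and a gene was past the threshold when limma's moderated test gave a Benjamini-Hochberg adjusted p under 0.01 and this value was 1 or more in size. Of the 17818 genes that 3 or more of the 7 libraries held at 10 or higher, 148 (0.831%) rose and 85 (0.477%) fell. The unadjusted p was under 0.05 for 6869 genes, and the adjusted p, whatever the fold, for 1814 higher and 1848 lower ones. The 3 treated libraries lay above all 4 untreated libraries for 2976 genes (16.7%) and below them for 3147 (17.7%). The groups did not overlap for any of the 233 genes past the threshold. The median log2 fold change over all genes tested was 0.0039. The number past the threshold depended on single libraries, at 25 without the untreated library of line 2, 28 without that of line 4, 48, 50 and 67 without the treated library of line 1, 2 or 4, and 100 and 110 when untreated line 1 or 3 was left out. In these 7 fits 14 genes kept their call each time, 13 that rose (Zmat3, Gtpbp2, Zfp385a, Gpt2, Atf5, Plk3, Ptp4a3, Unc5b, Rin1, Gdf15, Slc7a11, Aldh1l2 and Grb10) and 1 that fell (Clca3b). Where one of these is not among the genes named by rule, it is named here after its values were seen. A fit that takes each organoid line as a block of paired libraries (the blocked fit below) called 322 genes, 242 higher and 80 lower, of which 164 were among the 233. In bulk samples, fewer cells of a type and less RNA per cell cannot be told apart.

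**Figure D1:**
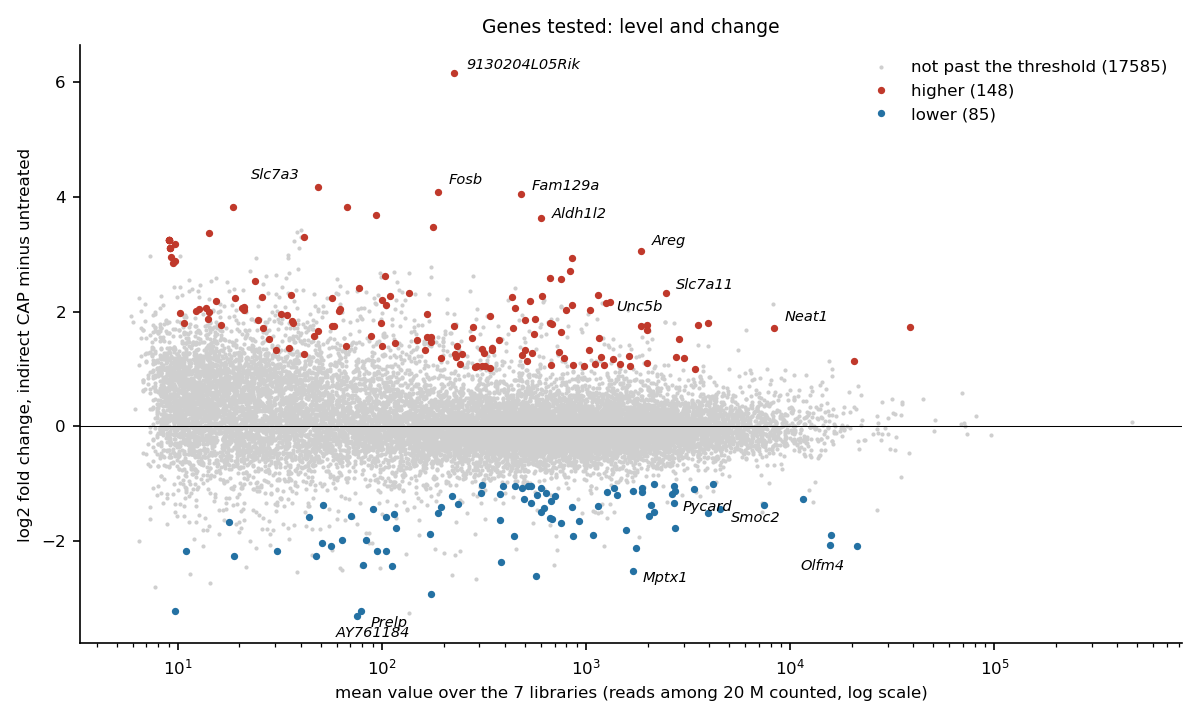
Each point is 1 of the 17818 genes tested, with its mean value over the 7 libraries on the horizontal axis (reads among 20 M counted, log scale) and its log2 fold change, indirect CAP from day 1 minus untreated, on the vertical axis. The 148 genes that rose (red) reach 6.17 and the 85 that fell (blue) reach -3.31, while most genes (grey) lie near 0.

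By number, the list of the ATF4 stress response held more calls than any other, and it was among the longest. The shorter list of AP-1 and immediate early genes held 8 calls among 27 tested, with a higher median (0.92). Of 41 ATF4 list members tested, 11 rose and 0 fell, against 0.831% and 0.477% of all genes. The treated libraries lay above all untreated ones for 34, against 16.7% of all genes, and the fitted change was above 0 for 40. Their median log2 fold change was 0.65. Slc7a11 (ENSMUSG00000027737, chromosome 3 from 49892526 to 50443614), the cystine transporter that supplies glutathione synthesis, had values of 779, 784, 1206 and 895 in the untreated libraries of lines 1 to 4 and 4325, 4202 and 5006 in the indirect CAP libraries of lines 1, 2 and 4. The lowest treated value was over 3 times the highest untreated one, and the means (± SD here and below) were 916 ± 201 (n = 4) and 4511 ± 433 (n = 3). The log2 fold change was 2.32 with a standard error (SE) of 0.15 (adjusted p = 0.000848). Aldh1l2 (ENSMUSG00000020256, chromosome 10 from 83487450 to 83534140), a mitochondrial enzyme of folate metabolism, went from 99, 94, 70 and 151 to 1395, 1469 and 939. Its change of 3.63 on the log2 scale (SE 0.26, adjusted p = 0.00104) was the largest of the list, and all 3 treated libraries stood far above the controls. Trib3 had untreated values of 278, 225, 190 and 235 and treated values of 1306, 2094 and 922, and Chac1 had 157, 173, 132 and 180 and 779, 1100 and 513. In both genes line 2 was highest and line 4 lowest among the treated libraries, with log2 fold changes of 2.56 (SE 0.25) and 2.25 (SE 0.24). Ddit3, the factor CHOP, rose from 220.0 ± 18.4 to 733 ± 172 (log2 fold change 1.71, adjusted p = 0.00227). Its gene overlaps Mars on the other strand in the annotation. Gdf15, a secreted stress hormone, rose from 439 ± 119 to 2089.7 ± 259.8 (2.28). Atf4 itself had values of 3421 ± 171 and 4481 ± 993 and was not past the threshold (log2 fold change 0.37, adjusted p = 0.0894). The other members that rose were Vldlr (2.17), Atf5 (1.77), Atf3 (1.47), Sesn2 (1.08) and Ppp1r15a (1.04), named after their values were seen except for Atf3. Leaving out 1 library kept between 4 and 10 of the 11 calls, the fewest without the untreated library of line 2, where the adjusted p of Atf3 was 0.0244. The blocked fit called 10 of the 11, all but Atf3 (adjusted p = 0.0128). Outside the list, Slc7a3, a transporter of cationic amino acids, was among the 12 largest rises, from 4, 3, 9 and 5 to 95, 92 and 132 (log2 fold change 4.17). Its treated values were even between lines, but the untreated level is so low that the 1 added before the logarithm shapes the fold.

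**Figure D2:**
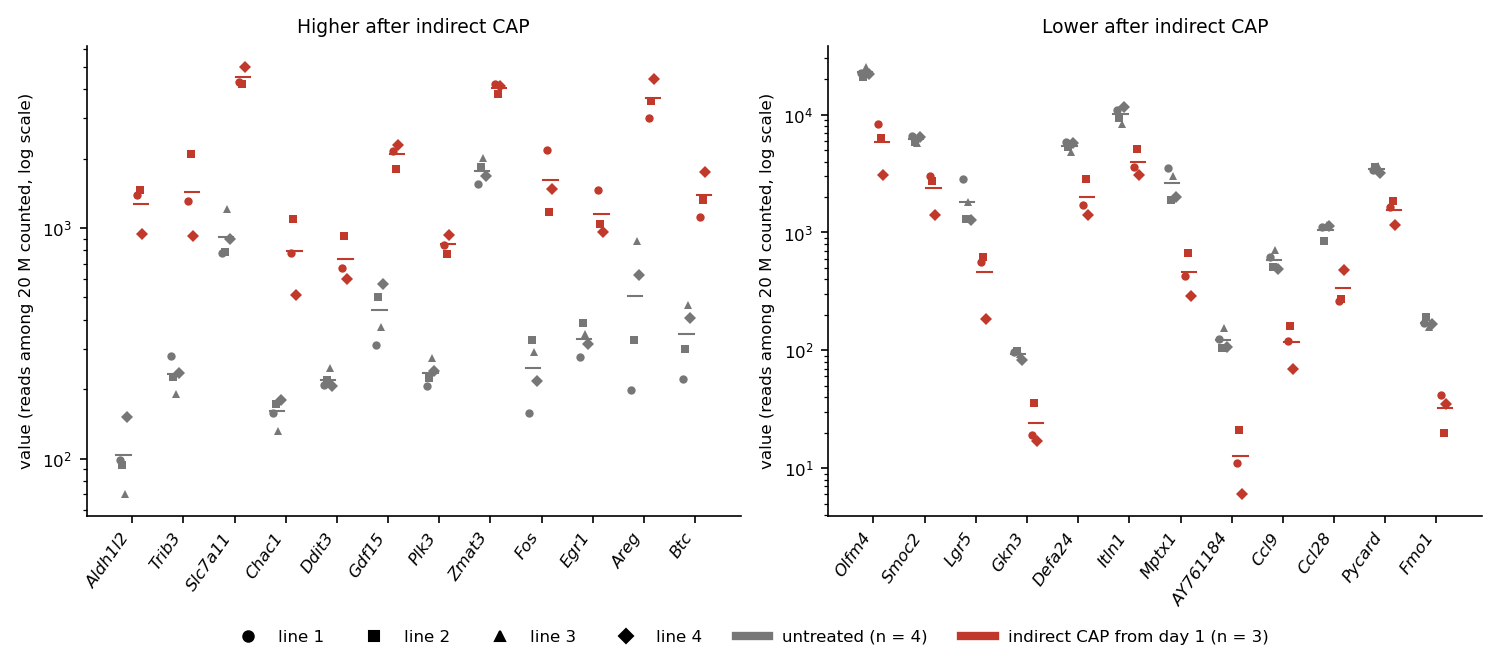
Values of 24 genes in the 7 libraries (reads among 20 M counted, log scale), grey for the 4 untreated and red for the 3 indirect CAP libraries, with a symbol for each organoid line and a bar at the group mean. In each of the 24 genes the 2 groups do not overlap, and Lgr5 alone of these genes was not past the threshold.

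The lists of the unfolded protein response, heat shock and antioxidant defence held 0 to 2 calls each, though many members moved by less than the threshold. Of 20 genes of endoplasmic reticulum chaperones and the unfolded protein response, 0 passed the threshold, and the median was -0.23. The treated libraries lay below all untreated ones for 9 of the 20 and above them for 2 (17.7% and 16.7% of all genes). The disulphide isomerases Pdia6 and Pdia4 of this list had adjusted p of 0.00745 and 0.00687 with log2 fold changes of -0.75 and -0.49, under the minimum fold. Of 12 heat shock genes 0 passed, with a median of -0.15, and the smallest p were those of Hspe1 (-0.49, adjusted p = 0.0139) and Dnajb1 (-0.31, adjusted p = 0.0367). Of 36 genes of the NRF2 response and glutathione metabolism, 2 rose (0.831% of all genes did), Slc7a11 and the aldo-keto reductase Akr1b8. Akr1b8 went from 1276, 1542, 1283 and 1232 to 2815, 2513 and 3302, with all treated values above all untreated ones (log2 fold change 1.11, adjusted p = 0.00342). Its adjusted p was 0.0126 without the untreated library of line 4. Hmox1, haem oxygenase and a common mark of NRF2 activity, had values of 75, 66, 155 and 131 and 236, 232 and 393. The groups did not overlap, but the adjusted p was 0.0209 at a log2 fold change of 1.46. Hmox1 was past the threshold in the blocked fit (1.67, adjusted p = 0.00558). The median of the NRF2 and glutathione list was 0.37, and 28 of the 36 had a fitted change above 0. The treated libraries lay above all untreated ones for 17 and below them for 2 (16.7% and 17.7% of all genes). Of 13 enzymes that remove reactive oxygen species, 6 lay below all untreated libraries (17.7% of all genes did). Past the threshold, 0 rose and 1 fell (0.831% and 0.477% of all genes). This was Prdx4, a peroxiredoxin of the endoplasmic reticulum, from 469, 411, 526 and 605 to 254, 236 and 236 (log2 fold change -1.04, adjusted p = 0.00505). The call of Prdx4 was lost in each of the 7 fits that left out 1 library (adjusted p = 0.0112 to 0.0162) and in the blocked fit (adjusted p = 0.0114).

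Immediate early genes and ligands of the EGF receptor were among the rises. Of 27 AP-1 and immediate early genes tested, 8 rose and 0 fell (0.831% and 0.477% of all genes). Their median log2 fold change was 0.92, and 17 lay above all untreated libraries (16.7% of all genes did). Fos (ENSMUSG00000021250, chromosome 12 from 85473890 to 85477273) went from 157, 327, 291 and 218 to 2190, 1173 and 1481, a log2 fold change of 2.70 (SE 0.28, adjusted p = 0.00342). Its relative Fosb had untreated values of 11, 56, 16 and 10 and treated values of 811, 248 and 160. The treated libraries all lay above the untreated ones, but were spread out, with line 1 highest and line 4 lowest, and the log2 fold change of 4.08 had an SE of 0.68 (adjusted p = 0.00949). Jdp2, a factor that dimerises with Jun, rose from 16 ± 7.79 to 197 ± 25.4 (3.68), Fosl1 from 39 ± 13.4 to 181 ± 55.6 (2.20) and Egr1, a zinc finger factor, from 331 ± 48.4 to 1152 ± 269.7 (1.78, adjusted p = 0.00269). The other 3 that rose were Atf3, Nr4a1 (1.33) and Zfp36 (1.05), the last 2 named after their values were seen. Jun had values of 1149 ± 159 and 1001 ± 219 (log2 fold change -0.21, adjusted p = 0.357). Between 1 and 4 of the 8 calls were kept without 1 library, the fewest without the untreated library of line 4, where the adjusted p of Fosb was 0.0267. The blocked fit called 4 of the 8, and not Fosb, Nr4a1, Zfp36 and Atf3 (the highest adjusted p was 0.0148). Of 19 EGF family ligands, receptors and feedback genes, 4 rose and 0 fell (0.831% and 0.477% of all genes). Areg, amphiregulin, went from 198, 328, 882 and 628 to 3005, 3562 and 4455, and Btc, betacellulin, from 222, 299, 463 and 406 to 1117, 1322 and 1754. Both ligands lie on chromosome 5, and both were lowest in untreated line 1 and highest in treated line 4. Their log2 fold changes were 3.05 (SE 0.45, adjusted p = 0.00679) and 2.04 (SE 0.26, adjusted p = 0.00433). Hbegf, a heparin-binding ligand of the same receptor, rose from 141, 194, 253 and 195 to 508, 387 and 522 (1.28) and Dusp6, a phosphatase induced by ERK signalling that limits it, from 879 ± 176 to 1988 ± 474 (1.18). The receptor Egfr had values of 1502 ± 143 and 1785 ± 586 (adjusted p = 0.46). Over the 7 fits without 1 library Areg and Btc kept their calls in 2, Hbegf in 1 and Dusp6 in 0 (the highest adjusted p was 0.0274, for Dusp6), and the blocked fit called all 4.

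Some targets of p53 rose and none fell. Of 29 tested, 7 rose and 0 fell, with a median of 0.54 (0.831% of all genes rose), and 19 lay above all untreated libraries (16.7% of all genes did). Plk3, a stress-activated kinase, had values of 207, 224, 272 and 240 and 847, 775 and 934 (log2 fold change 1.85, SE 0.12, adjusted p = 0.000848). Zmat3, an RNA-binding protein, went from 1552, 1850, 2016 and 1676 to 4233, 3826 and 4126 (1.20, adjusted p = 0.00212), and Eda2r, the ectodysplasin A2 receptor, from 335 ± 34 to 818 ± 119 (1.28). Cdkn1a, the cell cycle inhibitor p21, which was named after its values were seen, went from 2142, 1868, 1986 and 1744 to 4107, 5165 and 4087 (1.20, adjusted p = 0.00227). Plk2 (1.34), Gdf15 and Sesn2 were the others, and the last 2 are also members of the ATF4 list. Pmaip1 and Bbc3, p53 targets that promote apoptosis, had log2 fold changes of 0.04 and 0.25 (adjusted p = 0.883 and 0.225). Zmat3, Gdf15 and Plk3 kept their calls in each fit without 1 library, and the highest adjusted p of the others was 0.0261, for Plk2 without the treated library of line 4. Of 12 apoptosis genes that the study picked from these libraries, and which are therefore no independent evidence, 5 rose and 1 fell (0.831% and 0.477% of all genes). Unc5b, a netrin receptor with a death domain, went from 522, 394, 543 and 543 to 1767, 2574 and 2383 (2.15, adjusted p = 0.00104), and Cidec, a lipid droplet protein, from 110.0 ± 18.6 to 381 ± 102 (1.76). Trp53inp2 (1.06), Atf3 and Ddit3 were the other rises. Pycard, the inflammasome adaptor ASC, fell from 3404, 3575, 3652 and 3188 to 1630, 1839 and 1167 (log2 fold change -1.18, SE 0.14, adjusted p = 0.00397). Without the untreated library of line 2 only the call of Unc5b was kept among the 6, and Atf3 had an adjusted p of 0.0244.

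**Figure D3:**
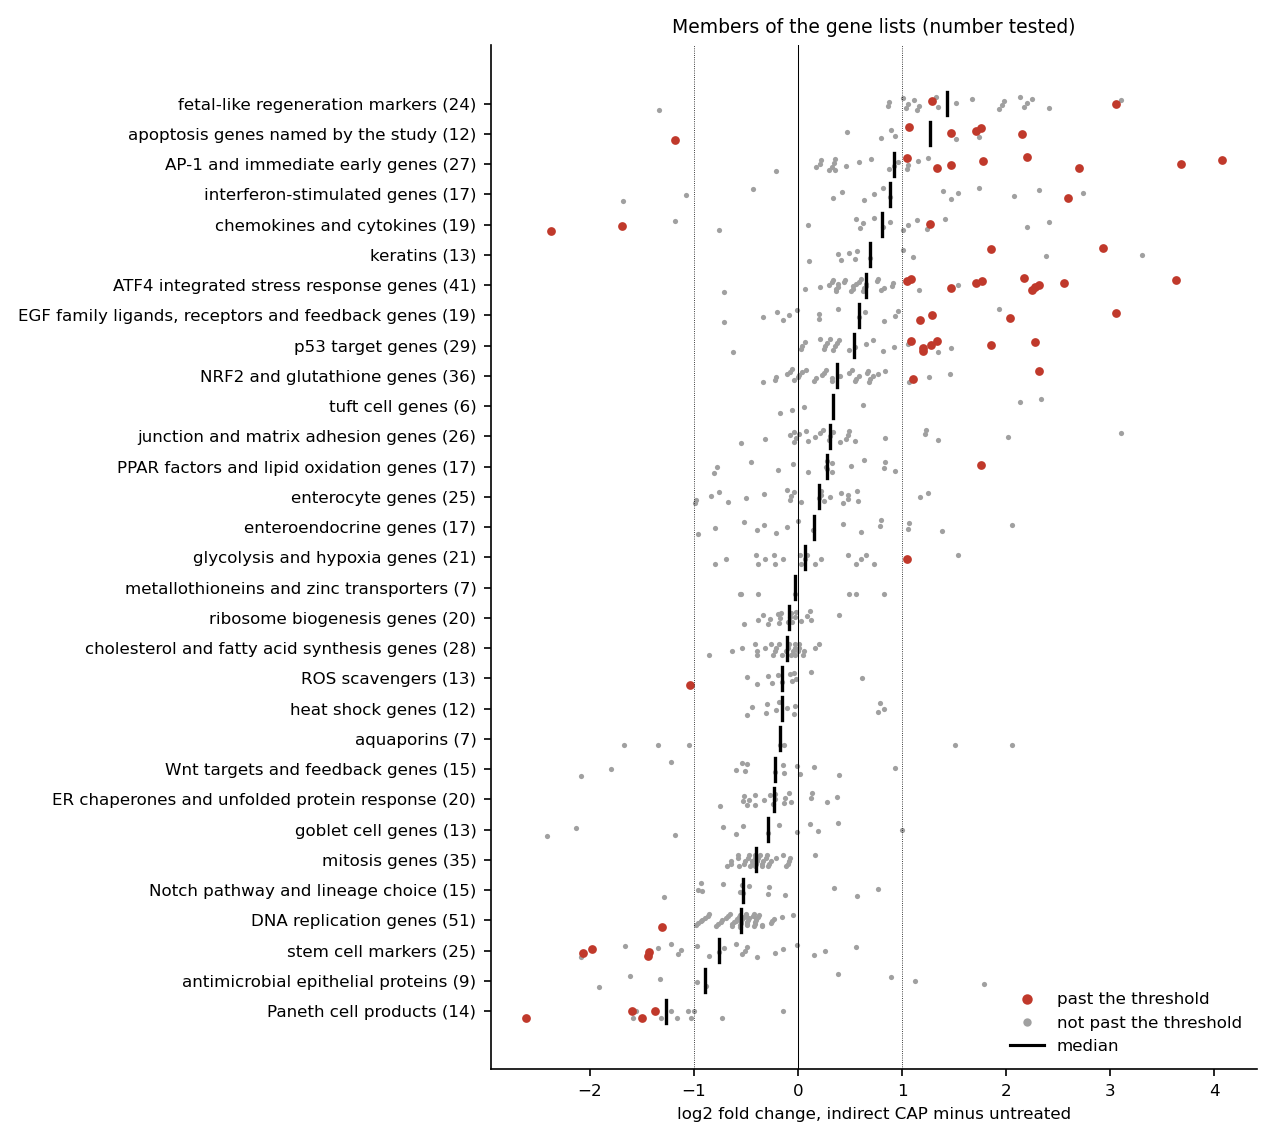
Each point is a tested member of a gene list, placed by its log2 fold change, indirect CAP from day 1 minus untreated, red where it was past the threshold and grey otherwise, with a black bar at the list median and the number tested in brackets. Medians run from -1.27 for Paneth cell products to 1.43 for fetal-like regeneration markers, against 0.0039 over all genes tested.

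Markers of the stem cell fell in part. Of 25 tested, 4 fell and 0 rose (0.477% and 0.831% of all genes). For 16 the treated libraries lay below all untreated libraries (17.7% of all genes did), and the median log2 fold change was -0.76. Olfm4 (ENSMUSG00000022026), a secreted glycoprotein of crypt base stem cells, had values of 22768, 20867, 25431 and 22333 and 8373, 6311 and 3046. The treated library of line 4 was lowest, and the log2 fold change was -2.07 (SE 0.29, adjusted p = 0.00611). Smoc2, a matricellular protein, went from 6606, 5841, 5705 and 6510 to 2985, 2753 and 1408 (-1.44, adjusted p = 0.00854), Adra2a, an adrenergic receptor, from 846 ± 159 to 318 ± 91.4 (-1.43) and Gkn3, a gastrokine, from 93 ± 7.12 to 24 ± 10.4 (-1.98). Lgr5, the receptor for R-spondin that defines these cells, had values of 2822, 1305, 1816 and 1281 and 566, 620 and 186. The groups did not overlap, yet the untreated libraries ran from 1281 to 2822 and the adjusted p was 0.0167 at a log2 fold change of -2.08. With the class of line as a term, lines 1 and 2 or lines 3 and 4 (added after the data were seen), Lgr5 was past the threshold (-2.23, adjusted p = 0.00209). Over the 7 fits without 1 library Olfm4 kept its call in 2, Gkn3 and Smoc2 in 1 and Adra2a in 0, and each of the 4 fits without an untreated library kept none. The highest adjusted p was 0.026, for Smoc2 without the untreated library of line 2. In the blocked fit Smoc2 alone of the 4 was not past the threshold (adjusted p = 0.012). Of 15 Wnt targets and feedback genes 0 passed, with a median of -0.22. Axin2, a negative regulator induced by Wnt, had values of 4694 ± 842 and 2156 ± 922 (-1.22, adjusted p = 0.0268; with the class of line as a term -1.33, adjusted p = 0.0032), whereas Ccnd1, cyclin D1, lay above all untreated libraries (0.93, adjusted p = 0.00743), under the minimum fold.

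Of the genes of DNA replication and mitosis 1 passed the threshold. All 51 replication genes tested had a fitted change below 0, with a median of -0.55, and for 39 of them the treated libraries lay below all untreated ones (17.7% of all genes did). A single one, Pclaf, a partner of PCNA, fell past the threshold (0.477% of all genes did). It went from 776, 862, 1054 and 914 to 477, 337 and 295 (log2 fold change -1.31, adjusted p = 0.00502). Its call was kept in 2 of the 7 fits without 1 library (highest adjusted p = 0.0179) and lost in the blocked fit (adjusted p = 0.012). Of 35 mitosis genes 0 passed, 34 had a fitted change below 0 and 17 did not overlap (17.7% of all genes lay below), with a median of -0.40. The sums of the 35 genes overlapped between the groups. The smallest p were those of Mad2l1, of the spindle checkpoint (-0.64, adjusted p = 0.0107), and Nusap1, a spindle protein (-0.58, adjusted p = 0.012). Mki67, the proliferation antigen, had values of 11723, 8402, 8959 and 8756 and 8894, 7454 and 6207, with overlapping groups (-0.33, adjusted p = 0.14). Of 20 ribosome biogenesis genes 0 passed, with a median of -0.09, and the smallest p were those of Dkc1 (-0.52) and Gnl3 (-0.34).

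Products of Paneth cells were lower, and some fell. Of 14 tested, 4 fell and 0 rose (0.477% and 0.831% of all genes), and 8 lay below all untreated libraries (17.7% of all genes did). All 14 had a fitted change below 0, and the median of -1.27 was the lowest of the lists. Itln1, the lectin intelectin, went from 10963, 9370, 8393 and 11600 to 3604, 5155 and 3101 (log2 fold change -1.37, SE 0.18, adjusted p = 0.005). Defa24 and Defa17, cryptdins of the alpha-defensin family, went from 5403 ± 470.0 to 1986 ± 752 (-1.50) and from 917 ± 132 to 322 ± 147 (-1.60). Mptx2, a mucosal pentraxin, had values of 1060, 551, 1408 and 511 and 123, 217 and 83. All treated values lay below all untreated ones, with a wide spread within each group (-2.62, adjusted p = 0.00851). Among the 12 largest falls stood further genes of these families, AY761184 and Gm15292 on chromosome 8, in the stretch that holds the alpha-defensins, and Mptx1. AY761184 went from 124, 104, 154 and 107 to 11, 21 and 6 (-3.31), Gm15292 from 274 ± 72.9 to 38.3 ± 21.8 (-2.92) and Mptx1 from 2608 ± 803 to 462 ± 194 (-2.53). Defa29 had a log2 fold change of -1.91, and its call and that of Defa17 were lost in the blocked fit (adjusted p = 0.012 and 0.0101). These are near-identical families, so reads could be split between their members, and the count of falls is not one of separate genes. Lyz1, lysozyme, is a single defining product of the same cell and was not past the threshold, with values of 20706, 17237, 15293 and 15122 and 7179, 11584 and 3757 (-1.32, adjusted p = 0.0257). It was past the threshold with the class of line as a term (-1.44, adjusted p = 0.00264). The treated library of line 2 was the highest of the treated ones for Itln1, Mptx2, AY761184 and Lyz1. Over the 7 fits without 1 library Itln1 kept its call in 2, Defa24 and Defa17 in 1 and Mptx2 in 0, and 5 of the 7 fits kept none of the 4. Defa17 had the highest adjusted p of the list (0.0303, without the untreated library of line 2).

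The lists of other differentiated cell types held no gene past the threshold. Of 25 enterocyte genes 0 passed, with a median of 0.20 and 3 above all untreated libraries (16.7% of all genes were). Apob, the apolipoprotein of chylomicrons, had the smallest p (0.58, adjusted p = 0.0257), followed by Mgam, a brush border glucosidase (0.42), and the brush border phosphatase Alpi had values of 18593, 32923, 27931 and 28427 and 34994, 29760 and 48166 (adjusted p = 0.145). Of 13 goblet cell genes 0 passed. Muc2, the secreted mucin, had values of 11810, 4266, 4217 and 6967 and 5919, 17540 and 5108, so that line 2 was highest among the treated libraries and line 1 among the untreated ones (0.38, adjusted p = 0.591). Klk1 (-2.14) and Atoh1, the factor of the secretory lineage (-0.72), had the smallest p of the list. Of 17 enteroendocrine genes 0 passed, with adjusted p of 0.0321 for Neurog3 (-0.96) and 0.0331 for Neurod1 (-0.80), the transcription factors of this lineage. Chga, a granule protein, had values of 438, 294, 568 and 776 and 423, 1560 and 1597, with overlapping groups. Of 6 tuft cell genes 0 passed. Ptgs1, a cyclooxygenase, had values of 23, 44, 27 and 67 and 144, 102 and 465 and Avil, an actin-binding protein, 38, 10, 37 and 42 and 63, 82 and 382. Neither pair of groups overlapped, and the treated library of line 4 was over 3 times the others (adjusted p = 0.0224 and 0.0579). The fit with the class of line as a term called Klk1 (-2.43, adjusted p = 0.00183), Ptgs1 (2.504, adjusted p = 0.00385) and Avil (2.39, adjusted p = 0.00614). Of 9 antimicrobial proteins of the epithelium 0 passed, with a median of -0.89. Pigr, which carries IgA across the epithelium, had a log2 fold change of -0.89 (adjusted p = 0.0139) and Reg3g, a secreted lectin, of -1.32 (adjusted p = 0.0201). Reg3g was past the threshold in the blocked fit (adjusted p = 0.00575) and with the class of line as a term (adjusted p = 0.00362). Of 15 genes of the Notch pathway and lineage choice 0 passed, among them the ligand Jag1 (0.77, adjusted p = 0.00502) and the glycosyltransferase Lfng (-1.29, adjusted p = 0.0143), which the class of line as a term brought past the threshold (-1.37, adjusted p = 0.00213).

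Few markers of fetal-like regeneration passed the threshold, and their values varied between libraries. Of 24 tested, 2 rose, Areg and Hbegf, and 0 fell (0.831% and 0.477% of all genes). For 15 the treated libraries lay above all untreated libraries (16.7% of all genes did), and the median of 1.43 was the highest of the lists. Clu, clusterin, had values of 998, 2865, 4602 and 5506 and 8057, 7953 and 12642, and Ly6a, the antigen Sca-1, 79, 154, 788 and 241 and 842, 839 and 1375. The untreated libraries differed between lines, with Clu lowest in line 1 and Ly6a highest in line 3, and the treated ones lay above all of them (adjusted p = 0.0534 and 0.0478). Ptgs2, the inducible cyclooxygenase, had values of 10, 13, 70 and 49 and 153, 45 and 302, and line 2 of the treated group lay below untreated lines 3 and 4. The blocked fit called Ly6a (2.78, adjusted p = 0.00424), and not Clu and Ptgs2 (adjusted p = 0.0162 and 0.0115). With the class of line as a term all 3 passed, Clu at 1.88 (adjusted p = 0.00425), Ly6a at 2.41 (adjusted p = 0.00436) and Ptgs2 at 2.60 (adjusted p = 0.00248). Of 13 keratins 2 rose and 0 fell (0.831% and 0.477% of all genes), with a median of 0.69. Krt4, a keratin of stratified epithelium, went from 81, 248, 322 and 307 to 2108, 1199 and 1670 (2.93, adjusted p = 0.00764). Krt5 rose at a low level, from 11.2 ± 3.4 to 42.7 ± 9.87 (1.86). Both keratin calls were lost in the blocked fit (adjusted p = 0.0113 and 0.0175). Over the 7 fits without 1 library Krt4 kept its call in 1 and Krt5 in 0. Of 26 junction and adhesion genes 0 passed, with a median of 0.31, and those with the smallest p were Cldn15 (-0.54, adjusted p = 0.00877) and the hemidesmosome integrin Itgb4 (0.84, adjusted p = 0.0126).

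Signals between cells changed in both directions. Of 19 chemokines and cytokines, 1 rose and 2 fell (0.831% and 0.477% of all genes). Lif, a cytokine of the interleukin 6 family, rose from 122, 130, 194 and 124 to 319, 294 and 411 (1.27, adjusted p = 0.00783). Ccl9 fell from 619, 509, 708 and 489 to 120, 162 and 69 (-2.37, adjusted p = 0.00378) and Ccl28, which attracts IgA plasma cells, from 1109, 844, 1156 and 1127 to 261, 272 and 480 (-1.69, adjusted p = 0.00465). Without the untreated library of line 2 none of the 3 calls was kept, and the highest adjusted p was 0.0261, for Lif. Over all 7 such fits Ccl9 kept its call in 4 and Lif and Ccl28 in 1. Of 17 interferon-stimulated genes 1 rose (0.831% of all genes did), with a median of 0.88. This was Oasl1, of the oligoadenylate synthetase family, from 176, 156, 195 and 262 to 666, 1273 and 1911 (2.60, SE 0.33, adjusted p = 0.00433). The treated library of line 1 was the lowest of the treated ones and still above all untreated ones, and the call was kept in 2 of the 7 fits without 1 library (highest adjusted p = 0.0171).

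Lists of metabolism held 0 or 1 call each. Of 28 genes of cholesterol and fatty acid synthesis 0 passed, with a median of -0.11. Dhcr7, the last enzyme of cholesterol synthesis, had values of 2963, 2914, 3008 and 2895 and 1901, 1863 and 1911. The groups did not overlap and each was even, and the log2 fold change of -0.64 was under the minimum (adjusted p = 0.00269). Of 17 genes of PPAR factors and lipid oxidation Cidec alone passed, as a rise (0.831% of all genes rose). Pparg had values of 780.0 ± 101 and 1513 ± 414 (0.93, adjusted p = 0.0126). Of 21 genes of glycolysis and hypoxia, 1 rose (0.831% of all genes did). Vegfa, the endothelial growth factor, went from 1129.8 ± 244 to 2307 ± 327 (1.05, adjusted p = 0.00949), and its call was lost in each fit without 1 library (adjusted p = 0.0107 to 0.0282) and, by its log2 fold change of 0.91, in the blocked fit. Of 7 aquaporins 0 passed, and the water channels Aqp4 and Aqp1 had log2 fold changes of -1.35 and -1.05 (adjusted p = 0.0134 and 0.0237). The class of line as a term brought both past the threshold (adjusted p = 0.00382 and 0.00332). Of 7 metallothioneins and zinc transporters 0 passed, with log2 fold changes of 0.83 for Slc39a4 and -0.55 for Slc39a5 (adjusted p = 0.0303 and 0.0219).

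The largest changes also held genes outside the lists. The largest rise was that of 9130204L05Rik, from 1, 4, 9 and 19 to 295, 722 and 517 (log2 fold change 6.17, SE 0.71, adjusted p = 0.00378). Its untreated level is so low that the 1 added before the logarithm shapes the fold. Its call was kept in 3 of the 7 fits without 1 library. Fam129a went from 88, 37, 76 and 42 to 866, 1658 and 602 (4.04), and Grb10, an adaptor that restrains insulin receptor signalling, from 8, 7, 10 and 12 to 105, 184 and 147 (3.82, adjusted p = 0.00104). Both were highest in treated line 2. Nt5e, the ectonucleotidase CD73 that makes adenosine, went from 33.8 ± 14.8 to 369 ± 105 (3.48). AC153517.1 (3.31) lies within Unc5b on the same strand, so reads of the 2 cannot be told apart. Prelp, a proteoglycan of the extracellular matrix, fell from 185, 129, 125 and 70 to 15, 19 and 6 (-3.21, adjusted p = 0.00505), and its call was lost in each fit without 1 library (adjusted p = 0.0101 to 0.02). Fmo1, a flavin monooxygenase, fell from 170, 191, 159 and 168 to 42, 20 and 35 (-2.44, adjusted p = 0.00322). A4gnt, a glycosyltransferase of gland mucins, went from 124 ± 41.3 to 24 ± 12.1 (-2.42) and Mylk3, a myosin light chain kinase, from 67, 95, 59 and 63 to 27, 12 and 8 (-2.25), with the call of Mylk3 lost in the blocked fit (adjusted p = 0.0132) and in 6 of the 7 fits without 1 library. That of A4gnt was lost in all 7 (adjusted p = 0.0135 to 0.0286). Gm4070, Gm20663 and Gm45912 (-2.18, -2.18 and -2.12) lie close together on chromosome 7, the first 2 overlapping on opposite strands, and are not separate evidence. Without 1 library Gm4070 and Gm20663 lost their calls in all 7 fits and Gm45912 in 6. Clca3b, a secreted protein of the calcium-activated chloride channel regulator family with close paralogs, went from 27190, 17543, 25593 and 21428 to 7001, 6219 and 5222 (-1.89, adjusted p = 0.00212).

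Some calls share a locus. All 14 genes of the protocadherin alpha cluster that were tested rose, from mean values of 1 to 1.75 to means of 19.7 to 41 (log2 fold changes of 2.86 to 3.82). They overlap in the annotation and count as 1 locus, and at untreated levels this low the fold rests on the added 1. Neat1, the nuclear RNA that builds paraspeckles (ENSMUSG00000092274, chromosome 19 from 5824708 to 5845478), went from 2686, 5863, 5285 and 3594 to 14256, 13056 and 13808 (1.72, adjusted p = 0.00611), with its call kept in 1 of the 7 fits without 1 library. Gm28006 lies inside it and moved with it (2.06). Malat1, its neighbour and another abundant nuclear RNA, named after its values were seen, went from 13534, 22818, 26502 and 16544 to 66098, 56789 and 68756 (1.73, adjusted p = 0.00465). The treated values of both nuclear RNAs lay within a narrow range while untreated ones varied. In all, 26 of the 233 genes lie inside another gene on the same strand.

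The treated library of lines 1, 2 and 4 was set against the untreated library of its own line. Because the groups did not overlap for any of the 233 genes, the direction in each line was fixed in advance. These differences therefore describe size alone. The size differed. The median difference of the 148 rising genes was 1.87, 1.76 and 1.95 in lines 1, 2 and 4, and that of the 85 falling genes was -1.41, -1.29 and -1.9. Line 4 had the largest of the 3 differences for 62 of the 85 falling genes and for 40 of the 148 rising ones. Fosb (6.08, 2.13 and 3.87 in lines 1, 2 and 4), 9130204L05Rik (7.21, 7.18 and 4.69) and Krt4 (4.68, 2.27 and 2.44) spanned most among the rises, and AY761184 (-3.38, -2.25 and -3.95), Mptx2 (-3.10, -1.34 and -2.61) and Defa29 (-2.09, -1.11 and -2.86) among the falls. The spans of these rises also hold differences between untreated libraries. In lines 1, 2 and 4 those stood at 11, 56 and 10 for Fosb, 1, 4 and 19 for 9130204L05Rik and 81, 248 and 307 for Krt4. Slc7a11 was nearly equal in the 3 lines (2.47, 2.42 and 2.48). Trib3 (2.23, 3.21 and 1.97) and Fam129a (3.28, 5.45 and 3.81) were largest in line 2, and Olfm4 (-1.44, -1.73 and -2.87) and Smoc2 (-1.15, -1.08 and -2.21) in line 4. These differences compare 1 library with 1 library, rest on the labels of the lines and were not tested. The lack of overlap also fixed the direction of all 233 genes within lines 1 and 2 (2 libraries a group). The same holds within lines 3 and 4 (1 treated and 2 untreated), and these pairs of lines differ in sex and passage. With the class of line as a term 781 genes were called. With lines 1 and 2 alone, 4 genes were past the threshold and 4242 had an unadjusted p under 0.05.

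**Figure D4:**
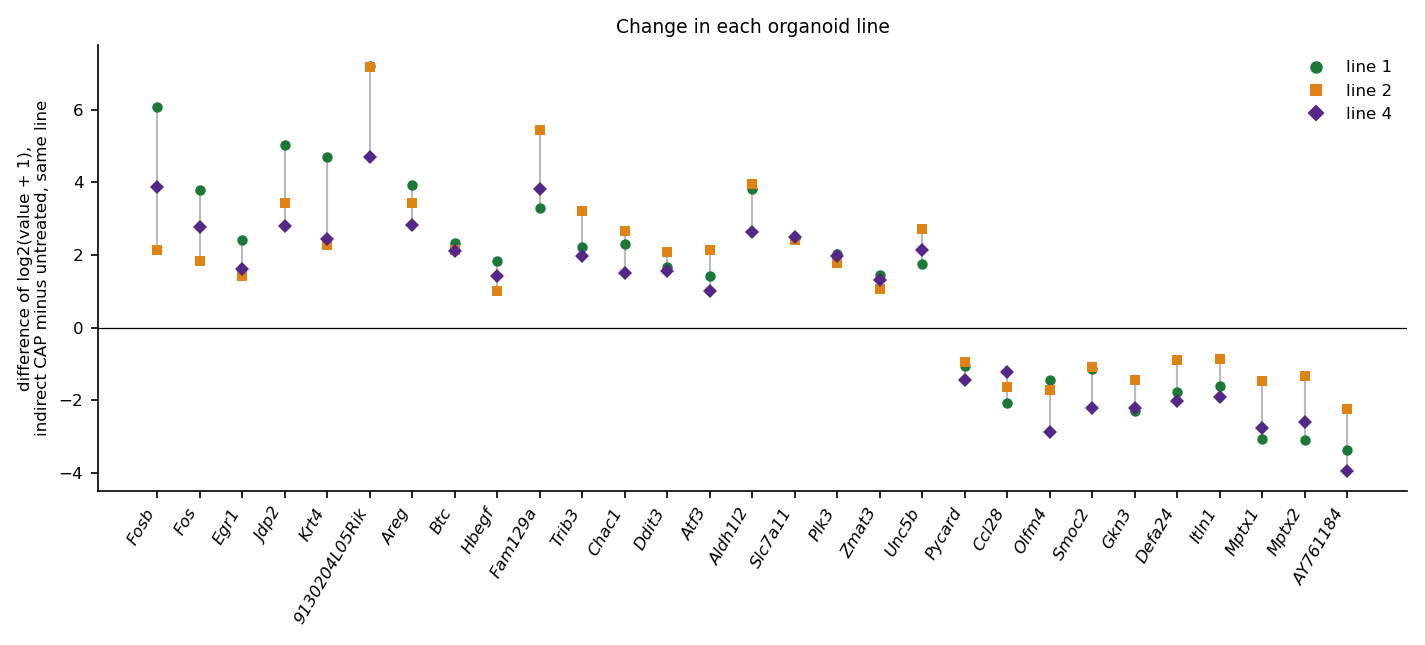
Difference of log2(value + 1) between the indirect CAP and the untreated library of the same line for 29 genes, with a symbol and colour for each of lines 1, 2 and 4 and a grey bar over their range. All points of the rising genes lie above 0 and all points of the falling genes below it, which the lack of overlap between the groups fixes. Fosb runs from 2.13 in line 2 to 6.08 in line 1.

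The mode of exposure was compared next, each time with lines 1, 2 and 4 on both sides. Against direct CAP for 24 h, 0 of 17672 genes (0.0%) passed, also in the blocked fit, and 1228 had an unadjusted p under 0.05. Against PAM from day 1, 0 of 17634 were (0.0%), with 3820 at an unadjusted p under 0.05. In the blocked fit 0 passed, but 3169 had an adjusted p under 0.05. These numbers do not show that the exposures act alike. The genes with the smallest p against direct CAP were Cyp1a1, a target of the aryl hydrocarbon receptor, at 74, 77 and 70 with indirect CAP and 255, 218 and 203 with direct CAP (log2 fold change -1.59, SE 0.17, adjusted p = 0.383), and Neat1 (0.63), Gm28006 (0.58) and Gm45828 (1.64). The values of Cyp1a1 did not overlap, and its untreated values were 14, 15, 73 and 10. In the blocked fit its rise with indirect CAP over untreated was past the threshold (2.43, adjusted p = 0.00575). Against PAM the smallest p were those of Neurog3, at 248, 216 and 112 against 19, 22 and 22 (3.06, SE 0.32, adjusted p = 0.165), Bglap3 (-1.68), Gdap10 (1.22) and Frem2 (1.49).

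The 2 indirect groups differ at once in the day of exposure, the age of the medium and the time in fresh medium before collection. These cannot be told apart. Against indirect CAP from day 2, 2 of 17987 genes were past the threshold (0.0111%), with 3906 at an unadjusted p under 0.05. The blocked fit called 623 (3.46%), 416 higher from day 1 and 207 lower. The pairing rests on the lines, and within each of 3 lines the libraries of both groups deviated together (r = 0.514, 0.631 and 0.706). Nupr1, a small nuclear protein of the ATF4 response (ENSMUSG00000030717), had values of 630, 747 and 944 from day 1 and 4548, 5091 and 6027 from day 2, a log2 fold change of -2.76 (SE 0.17, adjusted p = 0.00669). Against the untreated values of 204, 194, 219 and 539 its level from day 1 was not past the threshold (1.54, adjusted p = 0.0197). AC138214.1 was the other gene, at 13, 9 and 10 from day 1 and 171, 142 and 194 from day 2 (-3.87, adjusted p = 0.00669). The groups of both genes lay far apart, but in each of the 6 fits that left out 1 library 0 genes were past the threshold. Next came Slfn9 (1.27) and Acss1 (1.16), an acetyl-CoA synthetase, both higher from day 1 (adjusted p = 0.0193). The blocked fit called both (adjusted p = 2.67e-05). Of all 17987 genes, 416 were higher from day 1 and 207 lower in the blocked fit. By list, 26 of 35 mitosis genes, 13 of 51 replication genes, 12 of 25 enterocyte genes and 5 of 25 stem cell markers were higher from day 1 and 0 of them lower. Among these were Lgr5 (2.05, adjusted p = 2.67e-05), Gkn3 (3.71), Smoc2 (1.22), Pclaf (1.59) and Mki67 (1.29). Of 27 immediate early genes 1 was higher and 8 were lower from day 1, and of 41 ATF4 genes 0 and 4. Some other lists went both ways, among them 24 fetal-like regeneration markers (1 higher and 3 lower) and 9 antimicrobial proteins (2 and 1). Without the block the calls in these lists were 0, except for Nupr1.

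Set side by side, the 4 exposures gave the following levels, each with 3 libraries and with the untreated libraries shared. Slc7a11 stood at 4511 ± 433 with indirect CAP from day 1, 4421 ± 345 with direct CAP for 24 h, 5325 ± 638 with PAM from day 1, and 6223 ± 2021 in the later indirect group. Trib3 in the same order stood at 1441 ± 597, 1123 ± 466, 763 ± 323 and 2436 ± 503. Fosb stood at 406 ± 353, 79.67 ± 70.6, 26.3 ± 20.0 and 122 ± 88.4, highest of these 4 with indirect CAP from day 1 but with an SD close to its mean. In direct CAP for 30 min, a further group of the series that was not compared here, Fosb stood at 357 ± 190. Areg was at 3674 ± 731, 4449 ± 1672, 5373 ± 1013 and 8341 ± 3365, and Neat1 at 13707 ± 606, 8914 ± 1401, 9947 ± 986 and 22804 ± 3247. Olfm4 stood at 5910.0 ± 2686, 4485 ± 1255, 641 ± 444 and 1037 ± 191, and Itln1 at 3953 ± 1071, 4737 ± 702, 2338 ± 1483 and 4774 ± 784. Without the block none of these genes was past the threshold between indirect CAP from day 1 and another of the 4 exposures. The blocked fit called 3 of them against the day 2 group, Olfm4 (2.41, adjusted p = 2.56e-05) and Fosb (1.602, adjusted p = 0.000174) as higher from day 1 and Areg (-1.11, adjusted p = 0.000322) as lower.

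**Figure D5:**
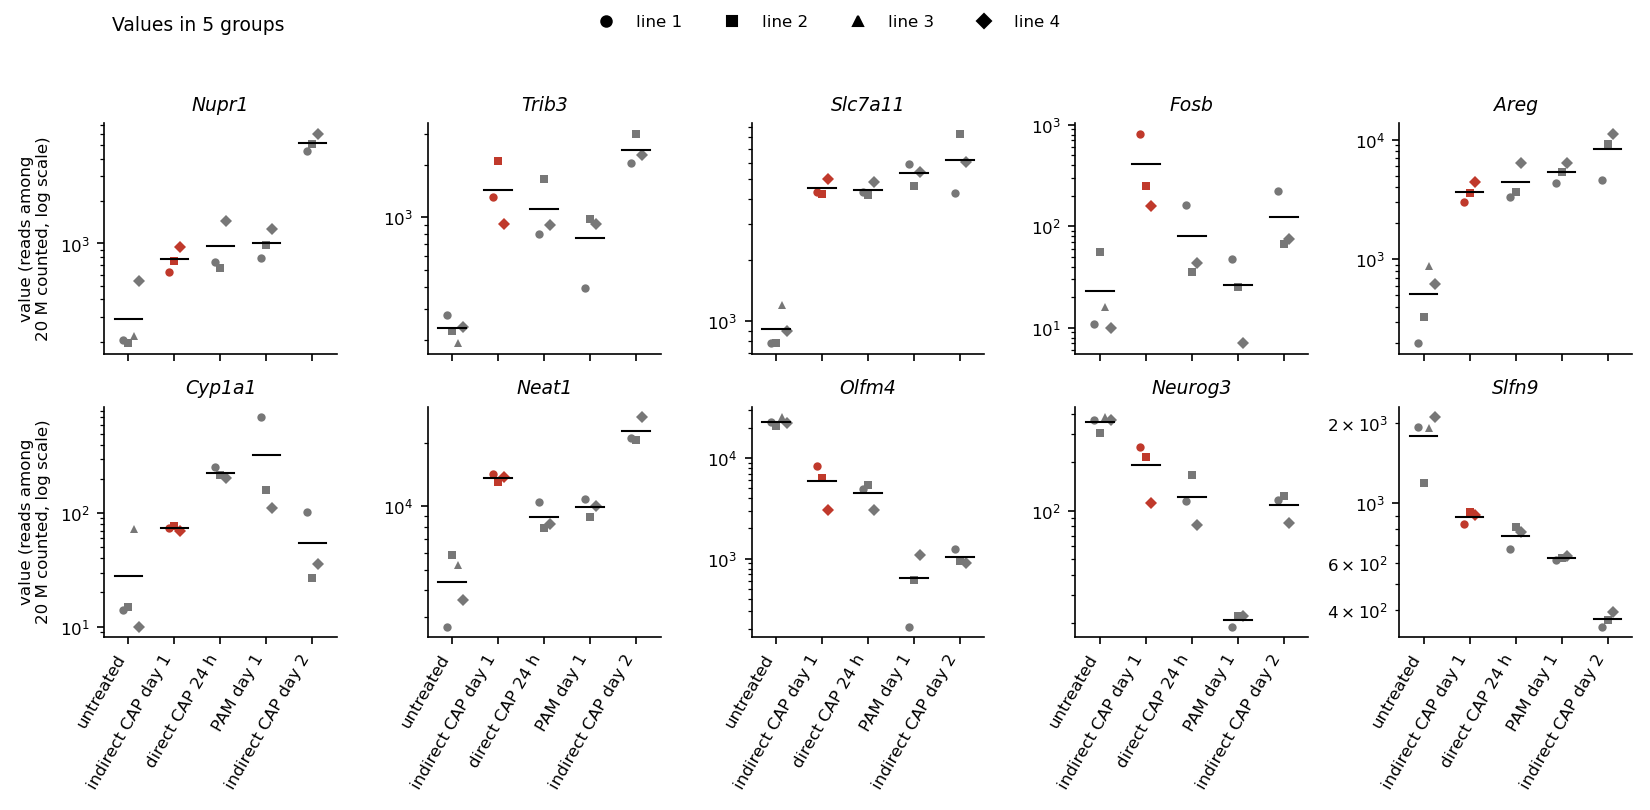
Values of 10 genes (reads among 20 M counted, log scale) in the 4 untreated libraries and the 3 libraries each of indirect CAP from day 1 (red), direct CAP for 24 h, PAM from day 1 and the indirect group of day 2, with a symbol for each line and a bar at the mean. Nupr1 stands apart with indirect CAP from day 2, at 4548 to 6027 against 630 to 944 from day 1, while Slc7a11 is higher than untreated in all 4 exposures.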

How the data were processed

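RNA-seq of mouse duodenal organoids (Ovation SoLo libraries per the labels, paired-end reads of 100 bases) was processed by the authors with Trimmomatic 0.36, STAR 2.5.3a and HTSeq 0.9.1 on GRCm38 and its Ensembl annotation, and tested by them with edgeR. The table that the authors deposited gives 52636 genes in 22 libraries as a score, the read count scaled to 20 M per library and rounded up to a whole number. The sums of the 7 libraries used here were 20009361 to 20016513. The values are not raw counts, so no count model was fitted, and rounding up blurs levels of a few reads. Whether the counting used strand is not given in the sources used here, so overlapping genes share reads. Depth was estimated from the spacing of low values, and in simulated libraries the estimate was off by at most 1.42%.

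Genes at 10 or higher in 3 or more libraries of a comparison were tested with limma 3.58.1 (R 4.3.3; trended variance) on log2(value + 1), over the libraries of the groups compared and with no covariate. P-values were adjusted by Benjamini-Hochberg over all genes tested, and a call needed an adjusted p under 0.01 with a change of 1 or more on the log2 scale. Replicates are lines, each from 1 mouse. On data simulated from the mean values of this comparison (17775 genes), 36 of 67 genes changed by 1 on the log2 scale were called, 67 of 67 changed by 2 and 66 of 66 changed by 3, with 2 false calls. The simulation had counting noise, the same independent spread for all genes and no effect of line. It therefore does not give the recovery or the false calls to be met in the real libraries. The 9 pairs of libraries within a group differed by far more than sampling noise (chi-square per gene 18.17 or more), so none was counted as a copy. By the labels, the line numbers pair libraries of the same mouse. Treated and untreated libraries of the same line deviated together in line 4 (r = 0.724) and weakly in lines 1 and 2 (r = 0.141 and 0.056), where the crossed pairs correlated more (r = 0.437 and 0.596). The fit with the line as a replicate block was an alternative.

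The members and gene lists were chosen with earlier results of these data known. Named genes are, by rule, the 12 largest rises and 12 largest falls among calls with a group mean of 50 or more, up to 5 calls of a list by size (or the 2 smallest p where none passed), a fixed list of markers, up to 4 genes of smallest p against each other exposure, and the 3 rises and 3 falls that varied most between lines. Atf4, Jun, Egfr, Pmaip1, Bbc3 and the markers of the identity check were named in addition, after their values were seen. The results for 2 genes that the rule names are not reported here. Coordinates and overlaps are from GENCODE vM21 on GRCm38, in which 52489 of the genes (99.7%) were matched by identifier.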

Additional observations from a re-analysis of the deposited data

Results flagged for a closer look

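Among the 4 untreated libraries, 1 library stood far from the other 3 for 13 of the 109 named genes, by Dixon's ratio of its gap to the whole range, where chance gives about 1 in 20. The untreated library of line 2 was the one for 6 of them. It was high for Fosb (56 against 10 to 16, ratio 0.87) and Akr1b8 (1542 against 1232 to 1283, 0.835). It was low for Nusap1 (665 against 808 to 827, 0.883), Avil (10 against 37 to 42, 0.844), Unc5b (394 against 522 to 543, 0.859) and Ccl28 (844 against 1109 to 1156, 0.849). The untreated library of line 1 was high for A4gnt (185 against 98 to 109, 0.874), Lfng (408 against 283 to 303, 0.84), Axin2 (5951 against 4158 to 4349, 0.893) and Mki67 (11723 against 8402 to 8959, 0.832). That of line 3 was high for Lif (194 against 122 to 130, 0.889) and Cyp1a1 (73 against 10 to 15, 0.921), and that of line 4 for Nupr1 (539 against 194 to 219, 0.928). The groups of 3 treated libraries are too small for this ratio.

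Between the 2 indirect exposures, Nupr1 (log2 difference -2.76, day 1 minus day 2) and AC138214.1 (-3.87) were past the threshold in the direct test of the difference (limma, adjusted p = 0.00669 for both). Each was lower from day 1, with groups that did not overlap. Without 1 library 0 genes were past it in each of 6 fits.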

How the results depend on the processing

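With 3 against 4 libraries the number of genes past the threshold depends on each library. Of the 233 genes, all kept their direction under each alternative that tested them (207 were tested without a treated library and 198 with lines 1 and 2 alone), each at an unadjusted p under 0.05. As the groups did not overlap for these genes, leaving out libraries could not turn a direction. The count was 25 to 110 without 1 library, 322 with each line as a replicate block (164 shared), 346 with all 7 groups in one fit (292 higher and 54 lower, 176 shared) and 3662 at the looser limit (adjusted p under 0.05, whatever the fold). Quantile normalization gave 249 (137 higher and 112 lower), median ratio scaling 268, a pseudocount of 10 277 and no filter 270. Of 2 alternatives chosen after seeing the data, passage class as a term gave 781 (231 shared) and lines 1 and 2 only gave 4. Against indirect CAP from day 2 the count of 2 became 1 with quantile normalization, 61 with all 7 groups in one fit, 623 with the replicate block, 607 at the looser limit and 0 to 0 without 1 library. Against direct CAP for 24 h and PAM from day 1 it was 0 under each alternative. For named genes 1247 values kept direction and side of the threshold, 356 lost the call and 24 gained it. Muc2, not past the threshold, had log2 fold changes of -0.17 to 0.72 without 1 treated library, below 0 without that of line 2. Of the list medians 454 moved by less than the spread, 10 by more, and that of glycolysis and hypoxia turned to -0.044 with lines 1 and 2 only. The median of tuft cell genes went to -0.01 with quantile normalization. Against untreated, the replicate block changed no call of a named gene other than those given above. The term for passage class, which is also the class of line, took Vegfa below the fold limit and brought Hmox1, Bglap3 and Nupr1 past the threshold besides the genes given above. The causes were not tested. Fold changes of genes at a few reads are limited by depth and by the rounding of the values.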
